A study of Mus musculus with 18 samples.

Results

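Cluster 7 was a group of 256 neck cells among the 3993 corpus cells kept in dataset 2, and among 4484 cells kept in both datasets of the series. Its members are the cells that carry cluster number 7 in the deposited cell annotation, 174 from pool K and 82 from pool T. The corpus makes up a large part of the glandular stomach, and its lining is folded into tubes called gastric units. In each unit, isthmus progenitor cells divide in the middle zone, pit cells line the outer part, and neck cells lie between the isthmus and the base, where chief cells make digestive enzymes. Neck cells secrete the gland mucin MUC6 and trefoil peptides and also carry pepsinogen transcripts. The annotation holds 4 neck clusters with 1247 cells, of which clusters 0, 2 and 12 had 471, 347 and 173 cells.

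Each pool was prepared from corpus gastric units of 3 male wild-type C57BL/6J mice aged 10 weeks, by a different operator for each pool, and was sorted into 6 plates of 384 wells as Hoechst33342-positive, ToPro3-negative cells. Quartz-Seq2 counts each transcript molecule once by a unique molecular identifier (UMI), and the deposited values are UMI counts without normalization. The 12 plates held from 10540256 to 12850942 UMIs, and the same 384 well barcodes were used on every plate. For each pool, the UMIs of a cluster's cells were added up, and levels are given per 1e6 UMIs (CPM) after scaling by trimmed mean of M-values (TMM). Mice of a pool were mixed before sorting, so the plates of a pool repeat 1 preparation and the animals cannot be told apart. The authors made the clusters from these same counts, so the comparison of cluster 7 with other clusters is given without p-values. A gene was counted as higher or lower when it differed at least 2-fold in the same direction in both pools, with at least 30 UMIs on the higher side in both pools.

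The cells of cluster 7 carried the neck markers, some above and some below the other neck clusters. *Muc6*, on chromosome 7 from 141213373 to 141241641 (GRCm39, GENCODE M39), stood at 3081 CPM in pool K and 3203 CPM in pool T, the highest of the 14 epithelial clusters. *Sox9*, a transcription factor of gland progenitors and secretory cells (chromosome 11, 112673009 to 112678586), stood at 643 and 650 CPM. *Pgc*, which encodes the pepsinogen progastricsin (chromosome 17, 48037760 to 48045407), reached 149665 and 159486 CPM, below the level in cluster 12 and in chief cells. *Aqp5*, a water channel gene, stood at 62.3 and 101.7 CPM, against 67.4 and 110 in cluster 0, 33.4 and 40.1 in cluster 2 and 111 and 207 in cluster 12. The list of 13 neck secretion genes had a median log2 difference of -0.11 against cluster 0 (11 measured), 0.46 against cluster 2 and -0.49 against cluster 12 (10 measured each), and against cluster 12 it had 3 members above and 6 below in both pools. The summed level of 4 parietal markers was 302 and 277 CPM, against 57239 and 51941 CPM in parietal cluster 1. All 3 tuft cell markers were at 0 UMIs in pool K and 2 of the 3 in pool T, and the summed stromal, endothelial and leukocyte markers did not exceed 1.59 CPM.

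In depth the cells were close to the other neck cells. Median depth in cluster 7 was 21543 UMIs per cell for pool K and 20283.5 for pool T, against 24591 and 24135 in cluster 0, 22588.5 and 22466 in cluster 2, and 20217 and 21197.5 in cluster 12. After thinning to 10000 UMIs, cluster 7 cells had a median of 3666.5 and 3605.5 detected genes, close to clusters 0 and 2 and above the 3402 and 3297.5 of cluster 12. The median share of mitochondrial UMIs was 5.91% and 5.32%. The authors' phase calls placed 246 of the 256 cells in G1, 10 in S and 0 in G2/M. The cell cycle marker *Mki67* had a UMI in 2.73% of the thinned cells (4.69% before thinning), near the 2.28% of parietal cells (median 47647 UMIs, against 21432.5 in cluster 7), and is read as background.

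*Muc6* had a UMI in 256 of 256 cells, also after thinning to 10000 UMIs, where 10.8% of parietal cells had one. The lowest cell had 4.08 UMIs per 10000, the median cell 29.8 and the highest 125.8. Of the 256 cells, 236 lay above the median cell of cluster 0 (11.5 per 10000), 251 above that of cluster 2 (7.41) and 236 above that of cluster 12 (11.7). The *Muc6* level of the summed cells was higher than in clusters 0, 2 and 12 on 12 of 12 plates. The mean within-pool log2 difference was 1.20 against cluster 0, 1.90 against cluster 2 and 0.87 against cluster 12, which is under 2-fold against cluster 12.

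**Figure D1:**
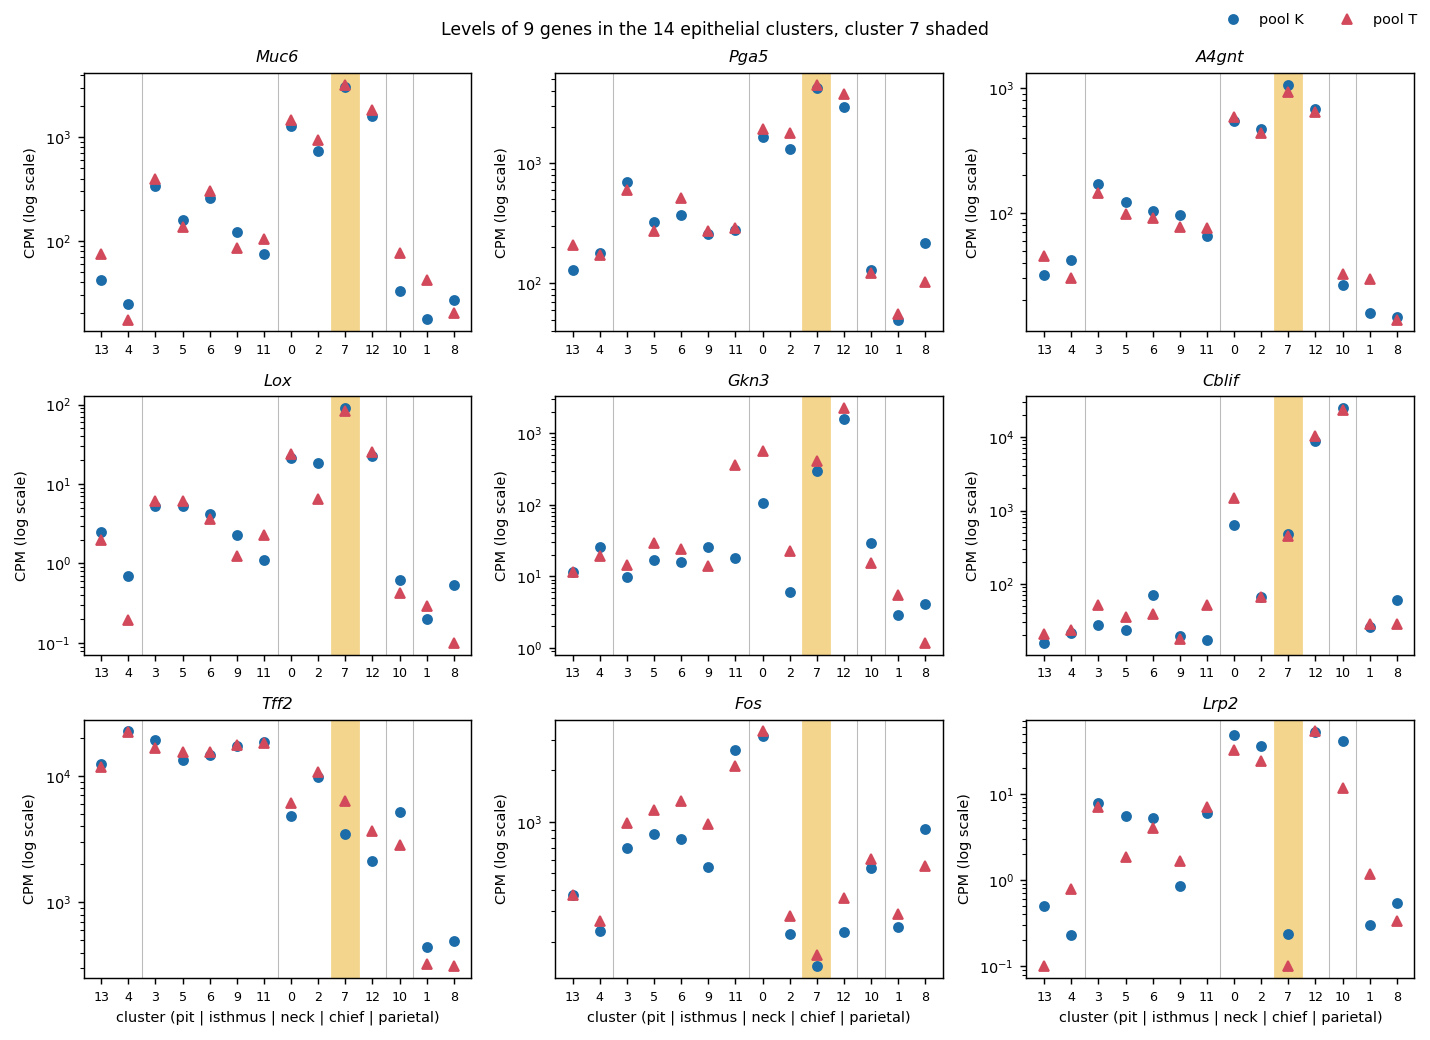
Levels of 9 genes (CPM, log axis) in the 14 epithelial clusters, in pool K (circles) and pool T (triangles), with cluster 7 shaded and a level of 0 drawn at 0.1. *Muc6*, *Pga5*, *A4gnt* and *Lox* are highest in cluster 7, *Gkn3* and *Cblif* lie between clusters 2 and 12, and *Fos* and *Lrp2* are at or near the lowest level.

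Beside *Muc6*, the genes of a pepsinogen, of the enzyme that caps the gland mucin and of a mucin-folding enzyme were highest in cluster 7. *Pga5*, a pepsinogen gene (chromosome 19, 10646320 to 10655435), stood at 4221 CPM in pool K and 4486 in pool T, against 1649 and 1917 in cluster 0, 1303 and 1804 in cluster 2 and 2918 and 3761 in cluster 12. Chief cluster 10 had 130 and 122 CPM of *Pga5*. *A4gnt*, whose product adds the terminal alpha-linked N-acetylglucosamine to gland mucin (chromosome 9, 99494555 to 99504420), stood at 1063 and 939 CPM and had a UMI in 256 of 256 cells. Its level in the other neck clusters ran from 439 to 688 CPM, and the cluster 7 level was higher on 12 of 12 plates against each of them. *Agr2*, a protein disulfide isomerase needed for mucin folding, was also highest in cluster 7, at 8373 and 8567 CPM, with a log2 difference of 0.87, 0.92 and 0.42 from clusters 0, 2 and 12. *Tff2*, which encodes the neck trefoil peptide (chromosome 17, 31360023 to 31363262), did not follow this order. It was at 3463 and 6350 CPM in cluster 7, against 2127 and 3633 in cluster 12, 4837 and 6124 in cluster 0, 9805 and 10743 in cluster 2 and 16444 and 16578 in the mean of the isthmus clusters, and varied from 0 to 538.8 UMIs per 10000 among the cells.

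Across all genes, cluster 7 was closer to the other neck clusters than to any other epithelial cluster. The correlation of log2 CPM over 9858 genes, which share library and depth, was 0.967 in pool K and 0.960 in pool T with cluster 2, 0.961 and 0.954 with cluster 12, and 0.947 and 0.945 with cluster 0. The pools of cluster 7 correlated at 0.976. With isthmus cluster 3 the correlation was 0.855 and 0.857, and with chief cluster 10 it was 0.842 and 0.855. Between the pools within cluster 7, 58 of 9292 genes passed 2-fold, 16 higher in pool T and 42 higher in pool K. With 1 pool alone, 203 to 299 genes passed 2-fold against cluster 2 and 209 to 224 against cluster 12.

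Against cluster 0, more genes were lower in cluster 7 than higher, and nearly all listed immediate early genes were among the lower ones. Of 9271 genes, 18 (0.194%) were higher in cluster 7 and 261 (2.82%) were lower. The immediate early genes are transcribed within minutes of a stimulus, including tissue dissociation, and encode transcription factors such as FOS, JUN, EGR1 and ATF3 and their feedback inhibitors. Of 21 listed members, 20 were lower in cluster 7 than in cluster 0, with a median log2 difference of -4.42 beside 0.00 over all genes. *Egr3* was the member not counted, with 0 UMIs in cluster 7, and with *Egr3* set to a floor of 3 UMIs the median was -4.40. *Fos* (chromosome 12, 85520658 to 85524047) stood at 144 CPM in pool K and 166.3 in pool T in cluster 7 and at 3182 and 3372 in cluster 0. *Atf3* (chromosome 1, 190902493 to 190950241) stood at 22.7 and 26.5 CPM, against 1386 and 1739. These genes were low on every plate, since *Fos*, *Atf3*, *Jun*, *Junb*, *Egr1* and *Zfp36* were higher in cluster 7 on 0 of 12 plates against cluster 0.

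The immediate early level also separated the clusters cell by cell. The 21 genes together had a median of 8.01 UMIs per 10000 in cluster 7, with a range of 2.39 to 100.4, and 0 of its 256 cells reached the median of cluster 0 (212.6 per 10000). Since the clusters were made from these genes among others, this gap describes the clusters. Against clusters 2 and 12 the ranges overlapped. There, 71 of 256 cells lay above the median of cluster 2 (12.5 per 10000) and 112 above that of cluster 12 (8.72). Of 16 list members with at least 30 UMIs, 3 were lower by 2-fold than in cluster 2, with a list median of -0.43, beside 0.826% of all genes tested. Of 15, 6 were lower than in cluster 12, with a list median of -0.93, beside 0.8% of all genes. *Klf4* (21.2 and 23.8 CPM, against 112 and 114 in cluster 2) and *Myc* (21.2 and 21.7, against 51.7 and 48.6) were among the 3. What set these levels was not tested.

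**Figure D2:**
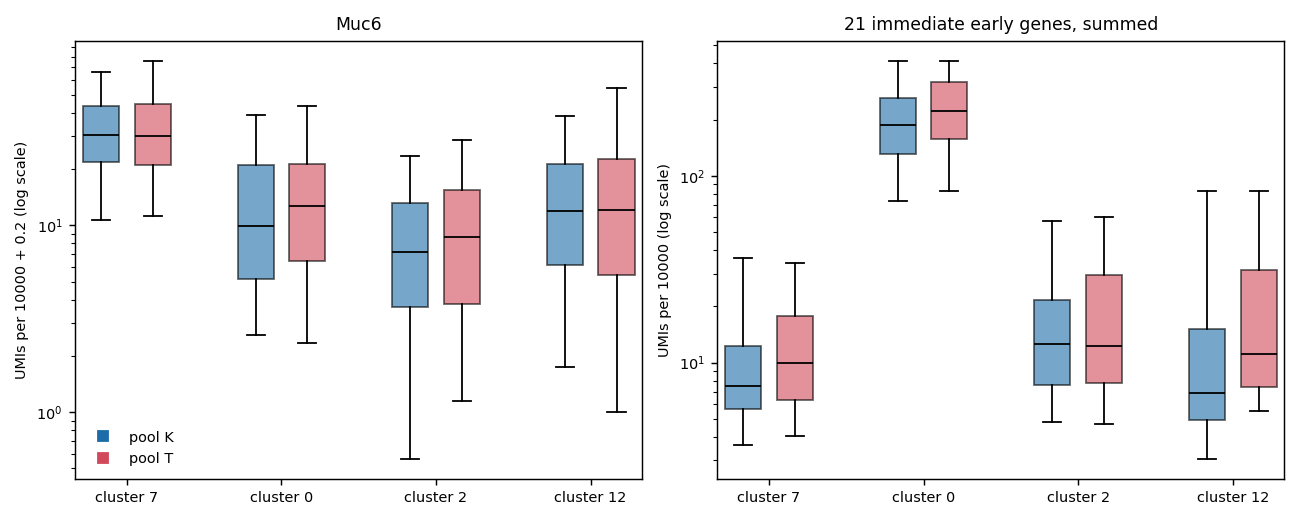
*Muc6* (left) and the 21 immediate early genes summed (right) in single cells, in UMIs per 10000 on a log axis, with boxes for the quartiles, a line for the median and whiskers at the 5th and 95th percentiles, for pools K (blue) and T (red). The *Muc6* boxes of cluster 7 lie above those of clusters 0, 2 and 12, and its immediate early boxes lie far below those of cluster 0 and overlap those of clusters 2 and 12.

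Other response genes were also lower than in cluster 0, beside 2.82% of all genes tested. Of 11 heat shock genes, 6 were lower, with a median of -1.72, among them *Hspa1a* (87.6 and 191 CPM, against 1404 and 1716), *Hspa1b* and *Dnajb1*. Of 13 NF-kB targets with at least 20 UMIs, 5 were lower, with a median of -1.34, among them the inhibitor *Nfkbia* at 51.1 and 46.1 CPM, against 268 and 277. Of 15 members of the EGF receptor list, 5 were lower, with a median of -0.51. These were the ligand *Hbegf* (12.6 and 20.1 CPM, against 92.8 and 141) and the feedback regulators *Dusp5*, *Dusp6*, *Errfi1* and *Spry1*. *Hes1*, a Notch target, was lower at 178 and 204 CPM against 728 and 666, while the receptor *Notch1* did not reach 2-fold at 33.4 and 26.0 against 44.1 and 39.9. The 16 cholesterol synthesis genes had a median of -0.73, with *Hmgcs1* and *Sqle* among those lower. Against clusters 2 and 12 the medians were -0.34 and -0.15 for heat shock and -0.01 and -0.01 for NF-kB targets. They were 0.00 and 0.05 for the EGF receptor list and -0.23 and 0.08 for cholesterol synthesis. There, 1 heat shock gene was lower than in cluster 12, and no other member of these lists was counted. Of the 261 lower genes, 120 were within 1.5-fold of clusters 2 and 12, and 129 were also lower than in the isthmus mean. Beside the 120, 3.65% and 3.21% of all genes tested passed 1.5-fold in both pools against clusters 2 and 12. Few genes of any kind thus differed from these clusters, and the 120 are no sign of a trait of cluster 0. Beside the 129, 8.33% of all genes tested were lower than in the isthmus mean. The shared cluster 7 sums build in part of that overlap.

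The number of genes higher than in cluster 0 rested on the UMI minimum and on the pools. It was 18 with at least 30 UMIs, 51 with at least 10 and 4 with at least 100, and it was 84 without pool T and 33 without pool K. Beside *Muc6* and *Pga5*, they included *Lox*, which encodes lysyl oxidase, *Prelp*, a matrix proteoglycan, *Prkar2b*, a regulatory subunit of protein kinase A, *Cobl*, an actin nucleator, *Azgp1*, a secreted glycoprotein, and *Sipa1l1*. The non-coding RNA *Snhg20* stood at 22.2 and 28.1 CPM, against 8.39 and 7.84 in cluster 0, and differed from clusters 2 and 12 by -0.04 and 0.05. *AI480526* (22.2 and 16.4 CPM) differed from cluster 0 by 1.81 and from clusters 2 and 12 by 0.46 and 0.30.

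Promoter sequence is shown for a pair of genes that were lower than in cluster 0, since many immediate early promoters carry the cyclic AMP response element (CRE), and for *Muc6*, which was higher. *Dusp1* encodes a phosphatase that turns off MAP kinases, and *Btg2* an antiproliferative protein. The windows run from 250 to 61 bases before the RefSeq start site (GRCm38.p6, matched by symbol), and capitals mark the palindromic CRE, TGACGTCA.
*Dusp1*, chr17:26508533-26508722, minus strand: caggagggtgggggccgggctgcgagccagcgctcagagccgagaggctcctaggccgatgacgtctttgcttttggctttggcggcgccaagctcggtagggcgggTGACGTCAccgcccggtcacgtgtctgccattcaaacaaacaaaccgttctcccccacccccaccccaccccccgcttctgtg
*Btg2*, chr1:134079216-134079405, minus strand: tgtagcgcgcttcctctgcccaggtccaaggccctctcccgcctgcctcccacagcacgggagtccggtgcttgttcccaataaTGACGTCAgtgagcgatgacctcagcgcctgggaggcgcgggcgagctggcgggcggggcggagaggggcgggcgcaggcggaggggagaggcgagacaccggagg
*Muc6*, chr7:141655454-141655643, minus strand: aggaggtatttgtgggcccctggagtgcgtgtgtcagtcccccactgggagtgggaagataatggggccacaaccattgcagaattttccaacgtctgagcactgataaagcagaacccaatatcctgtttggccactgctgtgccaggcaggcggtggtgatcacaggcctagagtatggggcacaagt
Of 17 matched promoters of the immediate early list, 2 had the CRE, those of *Dusp1* and *Btg2*, and they are shown for that reason, while 0 had the AP-1 element and 5 the EGR element. The CRE was in 5 of 206 matched promoters of the lower genes (2.43%), in 1.18% of the 7434 matched promoters of genes tested against cluster 0 and in 0.733% of all 27025 promoters. The AP-1 element TGANTCA was in 5.34% of the lower genes, 3.17% of those tested and 5.39% of all promoters. The EGR element GCGGGGGCG was in 4.85%, 2.49% and 1.36%. Of 11 matched promoters of higher genes, 0 had the CRE, 0 the AP-1 element and 1 the EGR element. Both strands were searched, and a match is only a match of letters.

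Against cluster 2, cluster 7 carried more of *Gkn3* and of some members of the chief cell list, and fewer of the products shared with the isthmus. Of 8473 genes, 34 (0.401%) were higher and 70 (0.826%) were lower. *Gkn3*, a gastrokine (chromosome 6, 87360238 to 87365917), had the largest log2 difference among the higher genes, at 299 and 406 CPM against 6.09 and 22.3. A minority of the cells carried this level, since the median cell had 0 UMIs and the highest 158.6 per 10000, and at 10000 UMIs 77 of 256 cells (30.1%, and 35.9% before thinning) had a *Gkn3* UMI, against 8.09% in cluster 2 and 2.43% in parietal cells. On the plate scale, per library total without TMM scaling, the fifth plate of pool T reached 1200 CPM, against a median of 253 in that pool. *Gkn3* was not a chief cell product here, since the median cell of chief cluster 10 had 0 UMIs and the highest 7.5 per 10000. *Cblif*, the intrinsic factor that chief cells make in mice (chromosome 19, 11724918 to 11740811), stood at 482 and 453 CPM against 65.9 and 66.7. *Thbs1* (a thrombospondin), *Nupr1* (a stress-linked nuclear protein), *Htra3* (a secreted protease), *Ptprt* (a receptor phosphatase) and *Furin* (a proprotein convertase) were also higher, by 1.81 to 2.30 on the log2 scale. The chief cell list had a median of 1.09 over 8 measured members, with 3 higher and 0 lower. Of the 34 higher genes, 33 were also higher than in the isthmus mean, beside 4.4% of all genes tested. The same cluster 7 sums enter both differences, so part of this overlap is built in.

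Of the 70 genes lower than in cluster 2, 67 were also lower than in the isthmus mean, beside 8.33% of all genes tested. Both differences use the same cluster 7 sums, so part of this overlap is built in. *Dmbt1*, a secreted mucosal defense protein, stood at 15.7 and 27.5 CPM, against 232 and 273 in cluster 2 and 194 and 340 in the isthmus mean. *Lgals2*, a galectin, stood at 175 and 197 CPM, against 1277 and 1540 and against 3012 and 3167. *Mucl3*, a mucin-like gene, stood at 53.5 and 133 CPM, against 596 and 520 and against 2948 and 2656. *Adh7*, a retinol-metabolizing alcohol dehydrogenase, *Tm4sf5*, *Syt8*, *Gstm3*, *S100a6* and *Vstm2b* fell in the order of isthmus, cluster 2 and cluster 7 in both pools. So did *Lgals2* and *Mucl3*, while *Dmbt1* in pool K was higher in cluster 2 than in the isthmus mean. Genes of shared cell machinery differed by small amounts, mostly in 1 direction. Of 77 ribosomal protein genes, 71 were below cluster 2 in both pools, with a median of -0.34, and so were 72 of 84 nuclear genes of oxidative phosphorylation, with a median of -0.24. Of 30 proteasome genes, 28 were below cluster 2, with a median of -0.18. None of these passed 2-fold.

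Against cluster 12, which carries both neck and chief cell transcripts, some chief cell transcripts were far lower in cluster 7. Of 7501 genes, 27 (0.36%) were higher and 60 (0.8%) were lower. Of the chief cell list, 3 of 8 measured members were lower, with a median of -0.86, and 1, *Pga5*, lay above cluster 12 in both pools. Scaling by library totals alone changed this split to 54 higher and 43 lower and shifted the median of all genes by 0.201 on the log2 scale, so the split rests on the scaling. *Cblif* stood at 8724 and 10450 CPM in cluster 12, a log2 difference of -4.35. *Clps*, which encodes colipase, stood at 4510 and 6827 CPM in cluster 7, against 50738 and 62229 in cluster 12 and 211187 and 210664 in chief cells. *Gkn3* was lower by 2.43, *Furin* by 4.02 and *Nupr1* by 4.62, and *Try4*, *Fes*, *Fxyd6*, *Pnliprp1*, *Smoc2* and *Tppp3* by 3.52 to 4.91. The genes higher than in cluster 2 and lower than in cluster 12 numbered 9, namely *Cblif*, *Cdkn1c*, *Derl3*, *Furin*, *Gkn3*, *Gper1*, *Nupr1*, *Pnliprp2* and *Thbs1*. *Cdkn1c*, a cyclin-dependent kinase inhibitor, ran from 18.1 and 25.5 CPM in cluster 2 through 72.1 and 76.3 in cluster 7 to 158.9 and 283 in cluster 12.

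The named genes higher in cluster 7 than in cluster 12 were also present in clusters 0 and 2. *Teddm3* (chromosome 16, 20971405 to 20973564) stood at 58.9 and 63.6 CPM in cluster 7, 48.5 and 51.3 in cluster 0, 86.7 and 65.3 in cluster 2, and 6.29 and 2.03 in cluster 12. *Ppp2r1b*, a scaffold subunit of a protein phosphatase (chromosome 9, 50756601 to 50811387), stood at 609 and 249 CPM, against 68.7 and 48.8 in cluster 12 and 1061 and 786 in cluster 2. *Glp1r*, the receptor of an incretin hormone, ranked first in cluster 7 by the mean of the pools, at 376 and 273 CPM, against 245 and 294 in cluster 2 and 87.1 and 64.3 in cluster 12. The gap junction gene *Gja1*, the leukotriene synthase gene *Ltc4s*, *Ces1f*, *Rflnb*, *Emp1* and *Slc4a4* were higher by 1.73 to 2.03. Ribosomal protein genes lay above cluster 12 in both pools in 64 of 75 cases, with a median of 0.27, the opposite direction to cluster 2. Under library totals this median was 0.47, of which 0.201 was the shift of all genes.

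**Figure D3:**
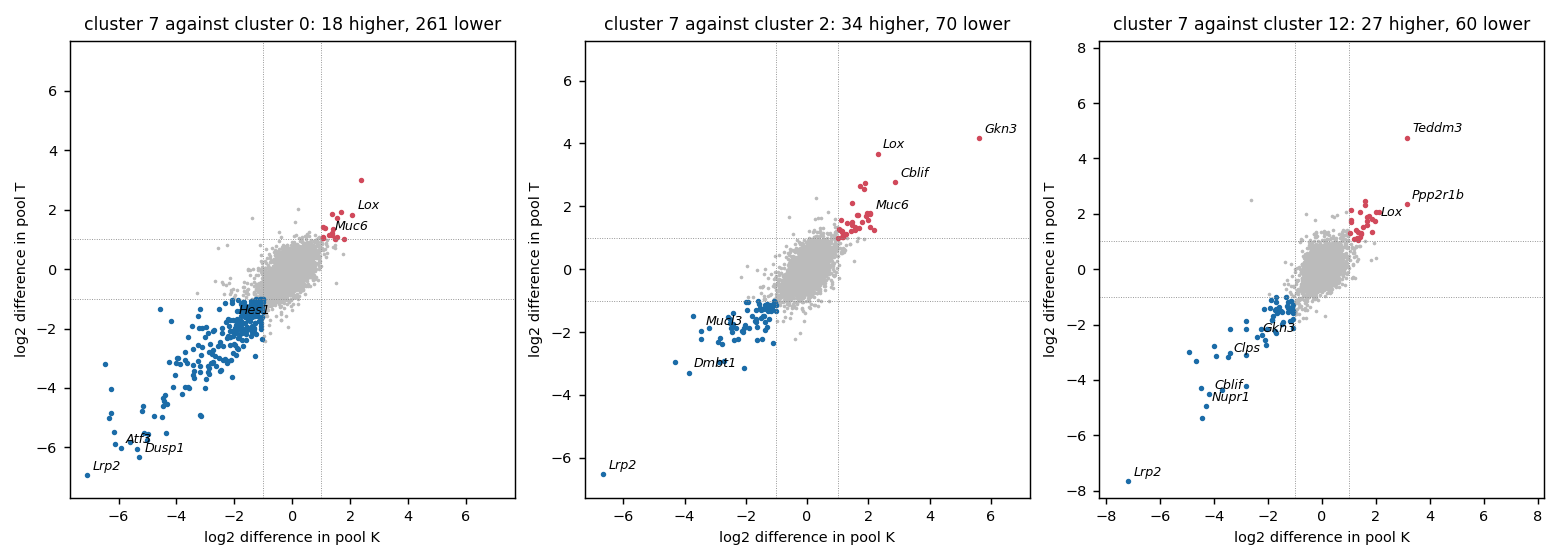
Log2 difference of cluster 7 from clusters 0, 2 and 12 in pool K (horizontal axis) and pool T (vertical axis), 1 point for each gene with enough UMIs, with dotted lines at 2-fold. Genes past 2-fold in both pools are red (higher) or blue (lower), and the counts are 18 and 261, 34 and 70, and 27 and 60.

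Only 5 genes passed 2-fold in the same direction against clusters 0, 2 and 12 each, and they are named here because the count is small. *Lox* (chromosome 18, 52649136 to 52663110) and *Azgp1* (chromosome 5, 137979758 to 137991777) were higher, and *Lrp2* (chromosome 2, 69254682 to 69416409), *Dusp1* and *Pitx1* (chromosome 13, 55972864 to 55984005) were lower. *Lox*, the enzyme that crosslinks collagen and elastin, stood at 90.0 CPM in pool K and 83.7 in pool T in cluster 7, against 6.39 to 25.1 in clusters 0, 2 and 12 and 3.30 and 3.39 in the isthmus mean. It was higher on 12 of 12 plates against each neck cluster. At 10000 UMIs, 110 of 256 cells (43.0%, Wilson 95% interval 37.1 to 49.1, and 60.5% before thinning) had a *Lox* UMI, against 14.5%, 8.67% and 14.4% in clusters 0, 2 and 12 and 0.143% in parietal cells. *Azgp1* was lower in level, at 40.8 and 29.7 CPM against 12.4 to 16.3, and chief cells had 50.6 and 29.0. *Pitx1*, a homeodomain transcription factor, was lower by 2.21 and 1.67 than cluster 0, by 1.99 and 1.06 than cluster 2 and by 2.14 and 1.44 than cluster 12 in pools K and T. *Dusp1* stood at 8.59 and 7.42 CPM, against 18.9 to 616 in the other neck clusters.

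*Lrp2*, which encodes the endocytic receptor megalin, was nearly absent from cluster 7. The 256 cells held 1 UMI in total, while cluster 0 held 477 UMIs, cluster 2 held 300 and cluster 12 held 177. With 1 UMI the level was 225-fold lower than in cluster 0 (counting interval 40.2 to 8917), 198-fold lower than in cluster 2 (35.2 to 7839) and 318-fold lower than in cluster 12 (56.4 to 12630). These intervals cover counting error only. At 10000 UMIs, 1 of 256 cells (0.391%) had an *Lrp2* UMI, against 18.6%, 15.9% and 19.8% in clusters 0, 2 and 12 and 0.143% in parietal cells (1.57% before thinning), so the cluster 7 share is read as background. Before thinning the shares in clusters 0, 2 and 12 were 24.8%, 20.2% and 20.8%. In pool K, 38 of 135 cells of cluster 0 and 52 of 236 of cluster 2 carried it, and in pool T 79 of 336 and 18 of 111. In all 3 clusters most cells had no *Lrp2* UMI, and single cells held up to 24. As the clusters were made from these counts, the gap describes the clusters.

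Against the mean of clusters 0, 2 and 12, 7 of 9237 genes (0.0758%) were higher and 68 (0.736%) were lower. The 7 were *Lox*, *Prelp*, *Muc6*, *Azgp1*, *Prkar2b*, *Ptprt* and *Ephx4*. *Prelp* was highest in cluster 7 at 27.4 and 28.6 CPM, against 6.56 to 19.0 in the other neck clusters, and *Ephx4*, an epoxide hydrolase, at 14.3 and 20.1 CPM against 5.77 to 14.2. *Prkar2b* stood at 38.2 and 29.7 CPM, against 11.8 to 16.3. The lower genes were led by *Lrp2*, *Dusp1*, *Ccn1*, *Dusp8*, *Plk3*, *Fosb*, *Tubb2a*, *Atf3*, *Csrnp1* and *Klf2*, in which the distance to cluster 0 was the largest of the 3 except for *Lrp2*.

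The study names 10 transcription factors for the neck lineage from these cells, so their direction against the isthmus is no independent evidence. Of the 10, 1 was lower than in cluster 0 (*Hes1*), and none passed 2-fold against clusters 2 and 12. Over all genes tested, 2.82% were lower than in cluster 0, and 1.23% and 1.16% passed 2-fold against clusters 2 and 12. *Spdef*, a factor of mucous secretory cells (chromosome 17, 27933326 to 27947929), was highest in cluster 7 at 388 and 400 CPM, against 252 to 365 in the other neck clusters and 106 and 111 in the isthmus mean. *Isl1* and *Mxd4* were higher than the isthmus mean by 1.81 and 1.47. *Sox9* was higher by 1.24, while *Klf5*, *Mecom*, *Foxa1* and *Sox4* differed by 0.79, 0.34, 0.42 and 0.05.

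The enzymes that build mucin sugars lay slightly above the other neck clusters. Over 20 measured members the median log2 difference was 0.32 against cluster 0, and it was 0.16 over 19 against cluster 2 and 0.27 over 19 against cluster 12. *A4gnt* against cluster 2 was the one member past 2-fold. *Galnt7*, *Galnt3* and *Gcnt1*, which start or branch O-linked chains, and *Fut2*, which adds fucose, ranked first in cluster 7 by the mean of the pools, with *Galnt7* at 501 and 463 CPM and *Gcnt1* at 88.5 and 63.0. Endoplasmic reticulum genes were 0.19 above cluster 0 and 0.24 above cluster 2 and 0.20 below cluster 12 in the median of 30 members, and the last of these was -0.00 under library totals. *Ern2*, the stress sensor of mucous cells, and *Creb3l4* ranked first in cluster 7, and *Xbp1*, a regulator of secretory capacity, stood at 1062 and 1109 CPM, between cluster 2 (804 and 773) and cluster 12 (1499 and 1373). Lysosomal genes differed from the neck clusters by at most 0.17 in the median.

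**Figure D4:**
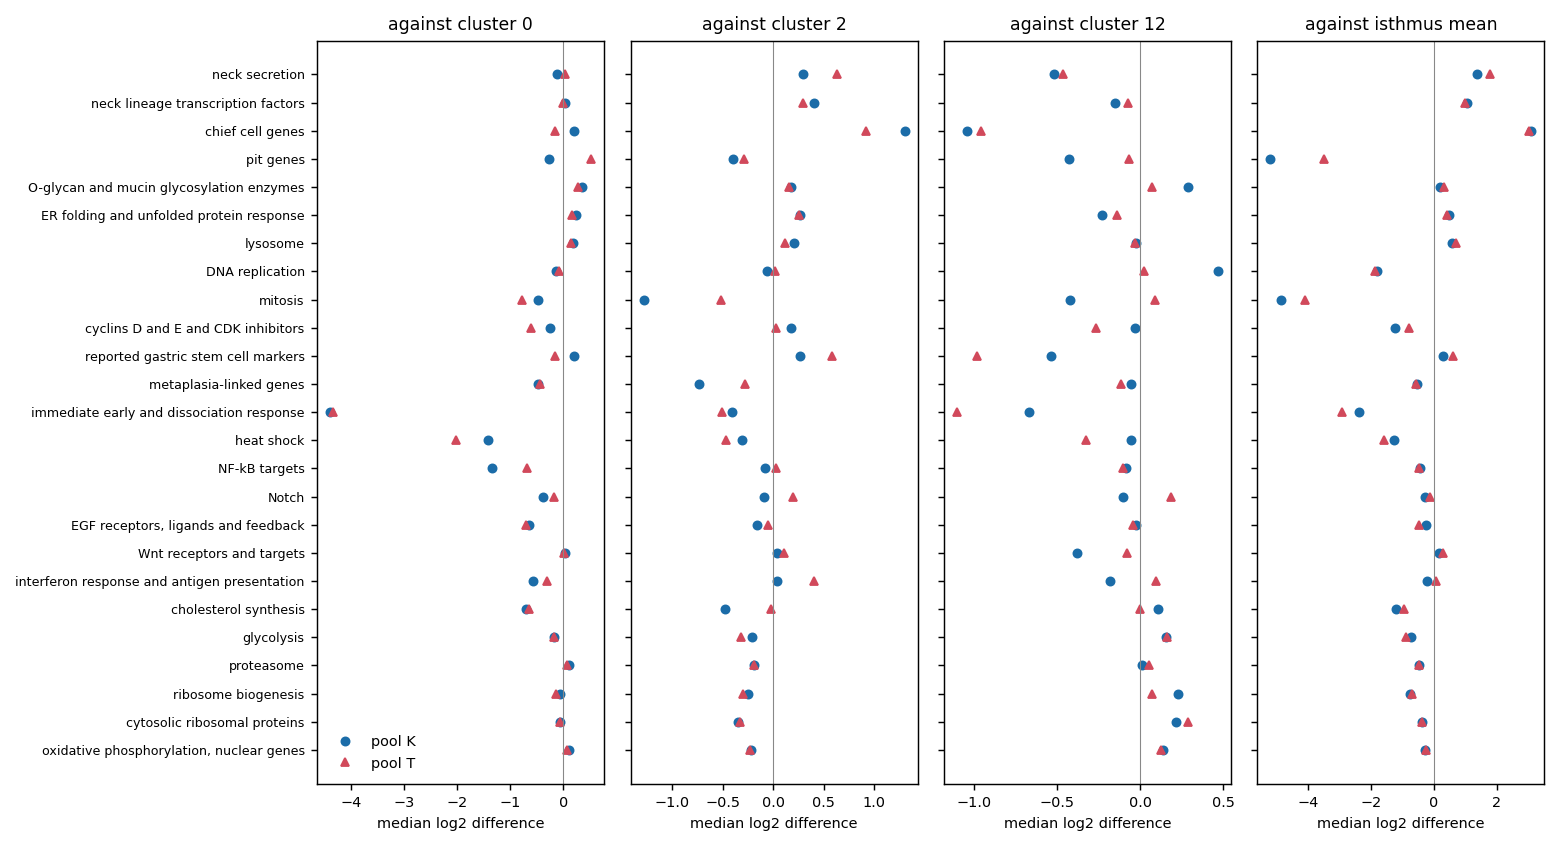
Median log2 difference of cluster 7 over the members of each of 25 gene lists, against clusters 0, 2 and 12 and the isthmus mean, in pool K (circles) and pool T (triangles). The immediate early list lies at -4.39 and -4.34 against cluster 0 and the mitosis list at -4.87 and -4.12 against the isthmus mean in pools K and T, while most lists lie within 0.5 of zero against clusters 2 and 12.

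Against the isthmus, cluster 7 had more of the gland products and far less of the cell division genes. Of 9800 genes, 431 (4.4%) were higher than the mean of clusters 3, 5, 6, 9 and 11 and 816 (8.33%) were lower. All 28 mitosis genes were lower, with a median of -4.54, and 24 of 28 DNA replication genes, with a median of -1.84, beside -0.03 over all genes. *Mki67* stood at 1.91 and 2.12 CPM against 111 and 129, *Top2a* at 4.06 and 1.59 against 87.9 and 94.3, and *Pclaf*, *Ska1*, *Spdl1* and *Pbk*, which act in replication and division, had at most 1.19 CPM. Of the isthmus cells 13.4% were called G1, against 96.1% of cluster 7. Limited to G1 cells, 297 genes were higher and 323 lower.

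Pit cell products were lower in cluster 7 than in the isthmus. Of 9 measured pit genes, 8 were lower, with a median of -4.35, beside 8.33% of all genes tested and a median of -0.03 over all genes. *Tff1*, the pit trefoil peptide, stood at 225 and 557 CPM against 14247 and 12400, *Gkn1* at 291 and 644 against 10823 and 7242, and *Muc5ac*, the surface mucin, at 27.4 and 105 against 1814 and 1443. *Adh7* stood at 2.86 and 6.89 CPM against 360 and 336, and *Vstm2b* at 0.477 and 1.59 against 68.9 and 75.3. *Tnni2*, *Zbtb7c*, *Gsta2* and *Gsdmc4* had at most 2 UMIs in the 256 cells, against 13.4 to 41.1 CPM in the isthmus mean. Cholesterol synthesis genes were lower by 1.10 in the median of 16, with 7 past 2-fold, beside the same 8.33% of all genes.

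The genes with the largest excess over the isthmus included those of several gland products. *Lox* (4.70), *Muc6* (4.22), *Cblif* (3.87), *Gkn3* (3.84), *Sdk2* (3.65), *Pga5* (3.58), *Gper1* (3.56), *Ffar2* (3.51), *Nupr1* (3.43) and *Clps* (3.38) had the largest log2 differences among the genes counted. *Muc6* stood at 165.9 and 171.5 CPM in the isthmus mean. The chief cell list had a median of 3.12 over 8 measured members, with 6 higher, and the ER list a median of 0.41 with 5 higher of 30. Over all genes tested, 4.4% were higher than the isthmus mean. Single isthmus clusters differed by 834 genes (cluster 11) to 1762 genes (cluster 6). Cluster 11 and cluster 3, at 1076 genes, were nearest by this count.

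Of 14 reported stem cell markers, 7 had at least 30 UMIs against each neck cluster, and none of these was counted as higher or lower. Over all genes tested, 3.01%, 1.23% and 1.16% were counted against clusters 0, 2 and 12, so 0 of 7 is near that share. Against cluster 12, 0 of 11 measured members lay above and 9 below in both pools, with a median of -0.86, and against cluster 2, 6 of 8 lay above and 1 below, with a median of 0.34. *Lgr5*, a stem and chief cell marker of the gland base, stood at 0.955 and 1.59 CPM in cluster 7, against 15.2 and 18.3 in cluster 12 and 17.9 and 23.96 in chief cells. *Axin2*, a Wnt target, stood at 6.92 and 8.48 CPM, against 1.40 and 1.73 in the isthmus mean and 11.5 and 16.9 in cluster 12. *Sox2* (50.6 and 68.9 CPM), *Prom1* (557 and 547) and *Bmi1* (33.9 and 40.8) differed from clusters 0, 2 and 12 by at most 0.36. *Stmn1* and *Iqgap3*, markers of the isthmus, stood at 2.12 CPM or less, against 21.3 to 40.7 in the isthmus mean. Of 20 genes of the Wnt list, 8 or 9 had at least 30 UMIs, depending on the comparison, and none of these was counted as higher or lower. With so few genes this too is near the shares over all genes, which were 12.7% against the isthmus mean. *Axin2*, with 29 and 16 UMIs in cluster 7, fell under that minimum, and its log2 difference from the isthmus mean was 2.33.

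The share of cluster 7 differed between the pools. It made up 174 of 644 neck cells in pool K (27.02%, Wilson 95% interval 23.7 to 30.6) and 82 of 603 in pool T (13.6%, 11.1 to 16.6). The plates of pool K ran from 21.3% to 30.8% with a median of 27.9%, and those of pool T from 9.26% to 18.9% with a median of 13.4%, without overlap. The plate means differed by -13.4 percentage points (27.1% ± 3.99 and 13.7% ± 4.48, SD, n = 6 plates each, exact permutation test, two-sided, p = 0.00216, the smallest value the test can give). Cluster 0 moved the other way, from 20.96% to 55.7%, and clusters 2 and 12 from 36.6% to 18.4% and from 15.4% to 12.3%. The immediate early level of all neck cells, which is high in cluster 0, ran from 46.9 to 75.3 UMIs per 10000 on the plates of pool K and from 119.7 to 165.8 on those of pool T, and in the isthmus from 47.3 to 77.8 and from 73.8 to 99.6. In cluster 7 it ran from 9.76 to 19.1 in pool K and from 9.5 to 16.9 in pool T, with overlapping plates and medians of 11.6 and 14.1. Its part in the difference of shares was not tested, and animals, operator and pool cannot be told apart.

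**Figure D5:**
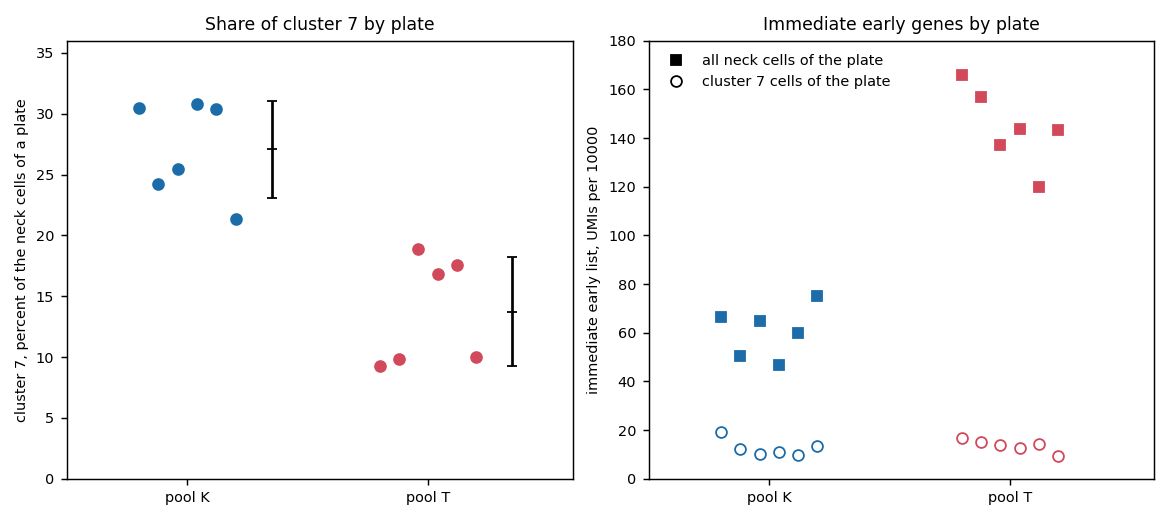
Left, cluster 7 as a percent of the neck cells of each of 12 plates, with the mean and SD of the 6 plates of a pool beside them. Right, UMIs of the 21 immediate early genes per 10000 on each plate in all neck cells (squares) and in cluster 7 (open circles). Pool K lies at 21.3% to 30.8% and pool T at 9.26% to 18.9%, and the neck cells of pool T are higher in immediate early genes on every plate, while the cluster 7 plates of the pools overlap.

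Within cluster 7 few genes were called between the pools, on plates of pool T that held 9 to 19 of its cells. Summed per plate and tested with edgeR's quasi-likelihood test, 25 of 6599 genes (0.379%) had a Benjamini-Hochberg adjusted p under 0.05, with 16 higher in pool T and 9 higher in pool K. At an unadjusted p under 0.05 in this test there were 508, so a gene that was not called may still differ. The CPM of plates are per library total without TMM scaling, and on that scale *Muc6* ran from 3170 to 3900 in pool K and from 2740 to 4200 in pool T. Metallothionein *Mt2* rose 1.13 ± 0.14 (log2, SE) in pool T (edgeR adjusted p = 4.06e-06), with plates at 455 to 1000 CPM against 234 to 387. *Mucl3* rose by 1.31 ± 0.16 (edgeR adjusted p = 4.06e-06), with plates at 108 to 172 CPM against 39.1 to 84.2. The plates did not overlap for either gene. The elastase gene *Cela1* rose by 1.56 and *Sprr2a3*, a cornified envelope gene, by 2.93 ± 0.56, with overlapping plates (4.65 to 646 CPM in pool T and 3.66 to 136 in pool K). In the other neck cells *Mt2* also rose, by 0.78 ± 0.12, *Cela1* by 0.84 ± 0.17 and *Sprr2a3* by 0.89 ± 0.31. In cluster 0 alone *Sprr2a3* rose by 2.22 ± 0.40. *Mucl3* differed by -0.48 ± 0.10 in the other neck cells.

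The pit genes *Tff1*, *Gkn1*, *Gkn2* and *Muc5ac* were among the 16 genes higher in pool T. *Tff1* rose by 1.23 ± 0.20 (edgeR, Benjamini-Hochberg adjusted p = 0.000482) and *Muc5ac* by 1.92 ± 0.39 (edgeR, adjusted p = 0.0106). The *Muc5ac* plates overlapped, with a median of 31.1 CPM in pool K and 32.5 in pool T, and the highest plate stood at 40.9 and 267. Of the *Muc5ac* UMIs of cluster 7, 25.2% were in a single cell, and 17.3% of *Gkn1*, 15.4% of *Tff1* and 27.3% of *Sprr2a3*. In the other neck cells *Tff1* differed by 0.28 ± 0.16 and *Muc5ac* by -0.83 ± 0.16 between T and K. The 4 pit markers summed to 866 CPM in pool K and 1857 in pool T in cluster 7, and to 1420 and 2163 in cluster 2. Whether pit cell RNA or doublets contributed was not tested.

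In pool K the largest excess was in *Ppp2r1b*, with a log2 difference of -1.26 ± 0.12 between T and K (edgeR, Benjamini-Hochberg adjusted p = 5.44e-09). Its plates ran from 485 to 807 CPM in pool K and from 219 to 349 in pool T. In the other neck cells it differed by -0.55 ± 0.16. The retinol-binding gene *Rbp2* fell by 0.88 in pool T, the nuclear receptor gene *Esrrg* by 0.83, the growth factor gene *Igf1* by 0.76, *Fam234b* by 0.57 and the splicing regulator gene *Mbnl2* by 0.49 on the log2 scale. In the other neck cells *Rbp2* differed by -0.46 ± 0.09, *Esrrg* by -0.15, *Igf1* by -0.09, *Fam234b* by -0.14 and *Mbnl2* by -0.10. In cluster 7, plates of the pools did not overlap for *Ppp2r1b*, *Fam234b* and *Mbnl2*. The number of genes called was 10 without the fifth plate of pool T, 14 without the third plate of pool K and 15 without the second plate of pool T.

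The pool difference in cluster 7 was then compared with that in the other neck cells on the same plates. With clusters 0, 2 and 12 summed and plate as a block, 48 of 9593 genes (0.5%) had a Benjamini-Hochberg adjusted p under 0.05 in edgeR, 9 more positive and 39 more negative in cluster 7. The 39 included *Dusp1*, *Ccn1*, *Btg2* and *Ifrd1*, which rose in pool T in the other neck cells, *Dusp1* by 1.75 and *Btg2* by 1.17. In cluster 7, *Btg2* differed by -0.25 ± 0.15, and *Dusp1* had too few UMIs for the test within the cluster. The mix of the other clusters differed between the pools, however. With cluster 0 alone as the comparison 7 genes were called, with cluster 2 alone 6, and with cluster 12 alone 0 (301 at an unadjusted p under 0.05). Of the 48 genes, 7, 1 and 0 were called again, so for most of them the pool difference and the mix of clusters cannot be told apart.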

How the data were processed

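Single cells of mouse gastric units were sorted into 384-well plates and profiled by Quartz-Seq2. The deposited counts are UMI counts per gene name and cell that the authors made with bcl2fastq 2.20.0.422 (submitters' processing notes), FASTX-Toolkit, Drop-seq tools and STAR on GRCm39 with Gencode M27. The authors kept cells with at least 2500 detected genes, clustered them with Seurat and deposited an annotation with cluster, phase and the percent of mitochondrial UMIs of each cell. No values were normalized before deposit, and 0 columns of other samples were used. Plate names of the annotation were tied to the plate titles by pool letter and by the numbers both skip, and all 3993 cell totals equalled those of the plate tables.

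UMIs of the 14 epithelial clusters were added up per pool (28 sums) and scaled by TMM (edgeR 4.0.16, R 4.3.3), with 0.5 UMIs added for log2 differences. Pool T and pool K were compared within cluster 7 on 12 plate sums, and the pool difference was compared with that of the other neck cells on 24 plate sums with plate as a block, by edgeR's quasi-likelihood test with Benjamini-Hochberg adjustment. Shares were compared by an exact permutation test over 12 plates (scipy 1.17.1, numpy 2.4.6, pandas 2.3.3, Python 3.11.15). Plates of a pool are technical replicates, so p-values measure the spread between plates of these pools. Alternatives were DESeq2 1.42.0, other scalings, other minimums and folds, G1 cells only and leaving out each plate or pool. Scripts were tested on simulated data.

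Named genes are the 10 largest differences each way per cluster comparison, without predicted genes, 6 each way between the pools, members of 25 lists and genes the study names for neck and isthmus cells. Values of some list members are not reported here. The members and lists were chosen with earlier results of these data known. Cells were thinned to 10000 UMIs for shares and detected genes. Intervals cover counting error only. No doublets were removed here, and leaving out the deepest 5% of cells was an alternative. Gene coordinates are from GENCODE M39, a later release than that of the files, and promoters from RefSeq on GRCm38.p6.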

Additional observations from a re-analysis of the deposited data

Results flagged for a closer look

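Of 36 groups of 6 plates checked for a lone plate, 2 had one, and chance gives about 1 in 20. *Sprr2a3* reached 136.0 CPM on 1 plate of pool K, far above the other 5 plates. *Gkn3* reached 1200.0 CPM on the fifth plate of pool T, against a median of 253 in that pool.

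For 12 named genes the difference between the pools in cluster 7 was not that of the other neck cells in edgeR's interaction test (Benjamini-Hochberg adjusted p under 0.05). The log2 differences between the pool effects were 2.63 for *Muc5ac*, 2.52 for *Ldb2*, 2.31 for *Ghrl*, 1.79 for *Mucl3*, 0.82 for *Tff1* and 0.81 for *Sytl2*. They were -1.89 for the clock gene *Nr1d1*, -1.85 for *Dusp1*, -1.69 for *Ccn1*, -1.43 for *Btg2*, -1.43 for *Dnaja4* and -1.32 for *Ifrd1*. The mix of clusters 0, 2 and 12 differed between the pools. Against cluster 0 alone, *Mucl3*, *Muc5ac* and *Sytl2* of the 12 were called, against cluster 2 alone *Mucl3*, and against cluster 12 alone none, and *Ldb2* could not be fitted. For *Btg2* the difference was -0.65, -0.19 and -0.50 against clusters 0, 2 and 12 alone. For most of these genes the pool difference and the mix of clusters cannot be told apart. A single cell held 25.2% of the *Muc5ac* UMIs and 32.6% of the *Ghrl* UMIs of cluster 7.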

How the results depend on the processing

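Under the alternatives, 0 of 776 values for named genes changed sign, and 685 moved by less than the spread between the pools. Genes named from a cluster comparison had passed 2-fold in the same direction in both pools. Leaving out a pool could therefore neither change their sign nor move them past that spread, so those values are no check. Of 625 list medians, 453 moved by less than that spread and 46 changed sign, all of them medians of at most 0.222 in size in the values given above. The number of genes past the threshold moved by over 1.5 times as follows, with the percent of genes tested. A minimum of 10 UMIs gave 200 genes (1.91%) against cluster 2, 51 higher and 112 lower (1.63%) against cluster 12 and 119 (1.1%) against the neck mean. A minimum of 100 UMIs gave 183 (3.16%) against cluster 0, 49 (1.09%) against cluster 2, 53 (1.7%) against cluster 12 and 811 (11.6%) against the isthmus mean. A fold of 1.5 gave 610 (6.58%), 309 (3.65%), 241 (3.21%), 202 (2.19%) and 2564 (26.2%) genes against clusters 0, 2 and 12, the neck mean and the isthmus mean. The median over plates gave 130 (1.41%) against the neck mean, and G1 cells gave 620 (8.21%) against the isthmus mean. With 1 pool left out, so that 1 pool alone had to pass, the share ran from 4.72% to 5.21% against cluster 0, 2.39% to 2.99% against cluster 2, 2.41% to 2.78% against cluster 12, 1.68% to 1.74% against the neck mean and 16.1% to 17.6% against the isthmus mean.

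Between the pools in cluster 7, no filter gave 51 genes and DESeq2 gave 16, and leaving out 1 plate gave 10 to 29. The difference of shares ran from -14.52 to -12.47 percentage points. For the pool difference against the other neck cells, the fit without the plate block gave 30 genes and no filter 91. Cluster 0, 2 or 12 alone, alternatives chosen after seeing the data, gave 7, 6 and 0 genes (453, 426 and 301 at an unadjusted p under 0.05). Fewer samples, genes or cells enter several of these, and other causes were not tested. No paired analysis of the pools was possible because the plates of pools K and T share no number. With a median of 20283.5 UMIs per cell and 82 cells in pool T, genes under 30 UMIs were not counted as higher or lower between clusters. List medians used members with at least 20 UMIs on both sides together in each pool.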

Other observations

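The neck cells of dataset 1 (cluster 3 of that dataset) came from corpus and antrum gastric units of pools tube1 and tube2, with 20 and 25 cells. The tables were normalized separately, here by library totals, so the values stand side by side without a comparison. In dataset 1 *Muc6* stood at 2041 and 2813 CPM, *Pga5* at 1246 and 1446, *A4gnt* at 682 and 772 and *Lox* at 46.8 and 48.8. On that scale, cluster 7 had *Muc6* at 3436 and 3499 CPM, *Pga5* at 4708 and 4900, *A4gnt* at 1185 and 1026 and *Lox* at 100.3 and 91.4. *Gkn3* stood at 6352 and 7659 CPM in dataset 1 and at 333 and 443 in cluster 7, and *Tff2* at 18514 and 23550 and at 3862 and 6936. The 21 immediate early genes summed to 9015 and 8782 CPM in dataset 1, 1252 and 1376 in cluster 7 and 20823 and 23346 in cluster 0. *Lrp2* had 7 and 5 UMIs in the neck cells of dataset 1.

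*Sst* and *Hhex*, markers of D cells, summed to 17.7 and 18.0 CPM in cluster 7, and *Ghrl*, the ghrelin gene, stood at 36.03 and 128 CPM. In pool T this was the highest of the 14 epithelial clusters, with chief cluster 10 next at 75.7 CPM, and 32.6% of the *Ghrl* UMIs of cluster 7 were in a single cell.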
